A study of Mus musculus with 16 samples.

Results

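The genes described here are 34 surface, secreted and accessory genes of disease-associated microglia (DAM), a state that microglia near amyloid plaques enter when genes of lipid handling, lysosomes, adhesion and immune recognition rise and the genes of resting microglia fall. They were taken as a list of gene symbols among the 20267 genes of the deposited table, chosen with earlier results of these data known. Those with a level of at least 1 CPM (counts per 1000000 reads) in at least 4 of the 16 libraries were tested. This left 32 genes of the 13912 tested in all. Gpnmb and Sash1 did not reach that level, and 25 members had at least 1 CPM in every library. Of the 32, 3 members (Dkk2, Hpse and Etl4) had fewer than 4 WT libraries at that level and therefore passed only with AD libraries counted. The symbols cover 6 recognition and adhesion receptors, 6 immune checkpoint and costimulatory proteins, 7 tetraspanins and other membrane proteins, 9 secreted proteins, and 6 genes (Capg, Psat1, Rai14, Gas7, Etl4 and Sash1) whose products act inside the cell, so that surface or secreted is not a fair name for these 6.

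In the amyloid-laden brain, microglia sense plaques through lipid and lectin receptors, and the signal of Trem2 with its adaptor Tyrobp is known to be needed for the full DAM state. Within that program, Itgax, Clec7a, Cd9 and Cd63 are widely used surface markers, and Spp1, Lgals3 and Gpnmb mark microglia or macrophages that take up debris. The kinase p38α, the product of Mapk14, relays stress and cytokine signals in myeloid cells.

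Microglia were sorted as CD11b+ and P2ry12+ live cells (about 10000 per mouse, from one hemisphere) from 11-month-old mice on a C57BL/6J background, and bulk RNA was sequenced from 4 mice in each of 4 groups. AD p38KO mice carried the APPswe/PS1dE9 transgenes, loxP-flanked alleles of Mapk14 (p38fl/fl) and 1 copy of Cx3cr1-creERT2. AD p38+/+ mice carried the same transgenes and p38fl/fl alleles without Cre, WT p38KO mice carried p38fl/fl and Cre without the transgenes, and WT p38+/+ mice carried p38fl/fl alone. All received a tamoxifen diet of 400 ppm for 4 weeks from 5 months of age. Because only p38KO mice carry Cre at the Cx3cr1 locus, effects of p38α loss and of that allele cannot be told apart. The mice chosen for sequencing were those with the best RNA integrity in each group. The labels give 5 female and 11 male mice (mouse 1 of every group and mouse 2 of the WT p38KO group were female). Since the tissue was pooled per mouse, fewer cells of a type and less RNA per cell cannot be told apart in any value below. The sort used P2ry12, whose product is less abundant on DAM, so cells below the gate were not measured.

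The targeted transcript matched the labels in every library. The main Mapk14 transcript, which includes the deleted exon 1, had 0.0575 to 0.248 CPM in AD p38KO mice, against 58.5 to 71.0 CPM in AD p38+/+ mice, and 0.0591 to 0.214 CPM in WT p38KO mice, against 47.1 to 82.6 CPM in WT p38+/+ mice. Summed over all exons, Mapk14 ranged from 138 to 210.2 CPM, and that total includes exons outside the deletion. Cx3cr1, the host gene of Cre, had 2978 to 3609 CPM in AD p38KO mice, against 5639 to 7429 CPM in AD p38+/+ mice. Depth estimated from the smallest steps between values was 12.3 to 16.4 reads per CPM, so 3 reads correspond to 0.183 to 0.244 CPM. The libraries held 15453 to 18023 detected genes, and AD p38KO libraries had the fewest (15453 to 16823). Defining markers of microglia were abundant in every library (Csf1r at 15556 CPM or more, P2ry12 at 6639 CPM or more). Summed markers of border-associated macrophages (10 of 10 genes matched, none at 0, most of the sum from Stab1) were at 353 to 584 CPM in AD p38KO, 436 to 628 CPM in AD p38+/+, 506 to 674 CPM in WT p38KO and 376 to 828 CPM in WT p38+/+ mice. Gene by gene, 9 of the 10 had lower estimates in AD p38KO than in WT p38KO mice (median -0.56 on the log2 scale) and 9 had higher estimates in AD p38+/+ than in WT p38+/+ mice (median 0.34), with 0 called by limma-trend in either (0 and 1 at an unadjusted p under 0.05). Markers of monocytes and granulocytes summed to 3.83 to 25.2 CPM (4 of 12 genes matched, led by Ccr2), and their AD and WT ranges overlapped within each p38 genotype. Summed lymphocyte and NK cell markers did not overlap between AD p38KO mice, at 13.9 to 28.3 CPM, and WT p38KO mice, at 29.2 to 38.4 CPM (3 of 10 genes matched, nearly all of it Cd79b). The highest monocyte and granulocyte sum was in AD p38KO mouse 1, and the part of such cells, and of the number of detected genes, in the results was not tested.

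Values below are CPM, and fold changes are differences on the log2(CPM + 0.5) scale from a limma-trend fit of all 16 libraries, in which a gene counts as changed at a Benjamini-Hochberg adjusted p under 0.05 over all 13912 genes. Each adjusted p is from that fit unless another is named. Nothing in the labels links mice of different groups into litters, so mice were treated as unpaired. Each p-value sets a difference against a spread between mice of the same group, estimated over all groups together.

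AD mice had more RNA of many members than WT mice, and no member was called lower. The list was chosen with earlier results of these data known. Shares of all genes set beside its counts, here and below, therefore describe the list and give no independent support. In AD p38KO against WT p38KO mice, 4 of 32 members rose (Cd9, Cd63, Capg and Psat1), while 0.244% of all genes tested rose. In AD p38+/+ against WT p38+/+ mice, 8 of 32 rose (the same 4 with Itgax, Clec7a, Cd52 and Serpine2), while 0.359% of all genes rose. With both genotypes averaged (the AD main effect), 16 of 32 rose, which added Lgals3, Lgals3bp, Lilrb4a, Cadm1, Dkk2, Hpse, Cd83 and Cybb, while 0.927% of all genes rose. The median log2 fold change of the 32 members was 0.69 in p38KO and 1.02 in p38+/+ mice, against -0.04 and -0.01 for all genes tested. In the deposited mm10 coordinates, the 4 genes called in both genotypes lie as follows: Cd9 on chromosome 6 from 125460266 to 125494791, Cd63 on chromosome 10 from 128900989 to 128912822, Capg on chromosome 6 from 72544391 to 72562983 and Psat1 on chromosome 19 from 15904678 to 15947337. Dkk2, Hpse and Etl4, which passed the filter only through AD libraries, had to differ to be tested, so no support is drawn from them. Among the 29 other tested members, 4 rose in p38KO mice, 8 in p38+/+ mice and 14 in the AD main effect, with medians of 0.66, 0.71 and 0.65.

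Counting separation without a model gave a like number in both genotypes. All 4 AD p38KO mice lay above all 4 WT p38KO mice for 16 of 32 members, and for 2.6% of all genes. All 4 AD p38+/+ mice lay above all 4 WT p38+/+ mice for 16 members as well, and for 3.36% of all genes. Without Dkk2, Hpse and Etl4 these counts were 14 and 13 of 29. All 8 AD mice lay above all 8 WT mice for 8 members (Clec7a, Cd9, Cd63, Capg, Lgals3, Lgals3bp, Lilrb4a and Psat1), against 0.546% of all genes.

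**Figure D1:**
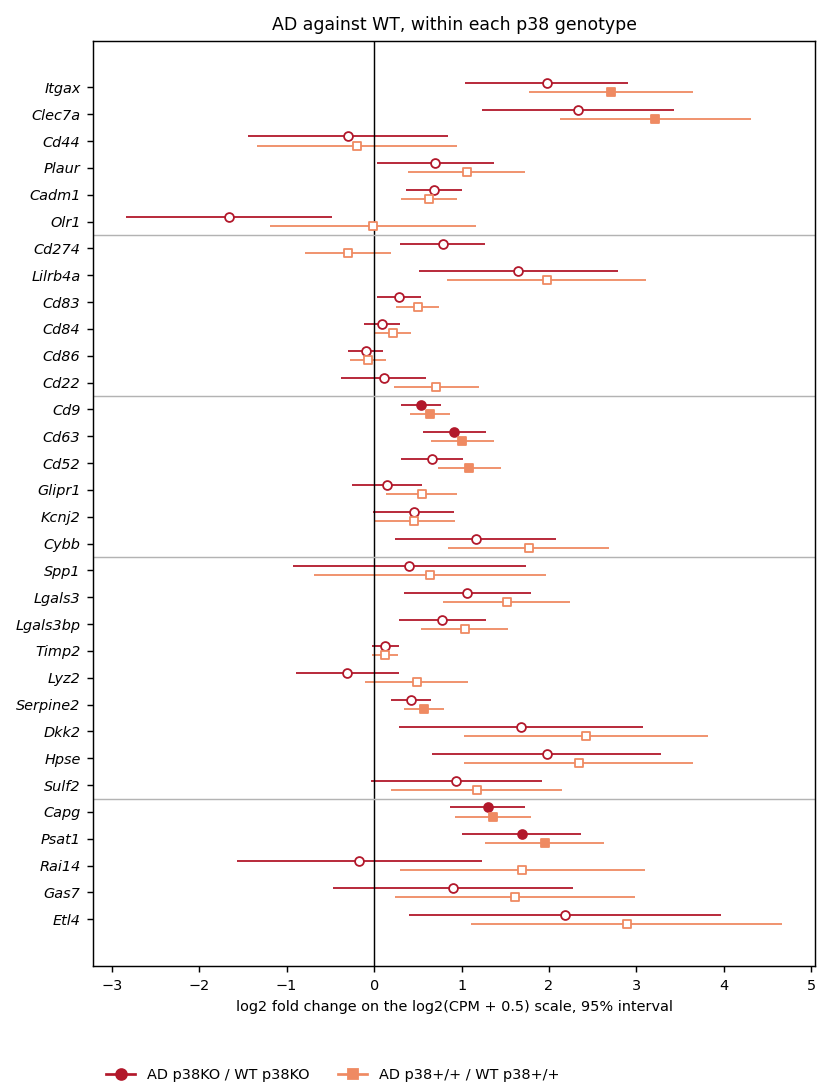
Log2 fold change of AD over WT for the 32 tested members (x axis, log2(CPM + 0.5) scale, with 95% intervals), as circles for AD p38KO over WT p38KO and squares for AD p38+/+ over WT p38+/+. Filled symbols passed an adjusted p of 0.05 over all genes (4 members in p38KO and 8 in p38+/+ mice), and grey lines divide the 5 role groups, from receptors at the top to intracellular proteins at the bottom.

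Of the 6 recognition and adhesion receptors, Itgax, Clec7a and Cadm1 rose in the AD main effect, and Clec7a and Itgax had the largest fold changes among the 8 members called in AD p38+/+ against WT p38+/+ mice. Itgax encodes CD11c, the alpha X integrin chain that pairs with Itgb2 in a complement receptor. Its levels were 78.4, 124, 57.2 and 44.9 CPM in AD p38KO mice, 147, 74.7, 64.7 and 29.1 CPM in AD p38+/+ mice, 14.5, 35.5, 14.2 and 13.3 CPM in WT p38KO mice, and 7.87, 17.2, 12.3 and 5.78 CPM in WT p38+/+ mice. Every AD mouse lay above every WT mouse of the same p38 genotype, and WT p38KO mouse 2, at 35.5 CPM, lay above AD p38+/+ mouse 4, at 29.1 CPM. The log2 fold change was 1.97 ± 0.44 (SE) in p38KO mice (adjusted p = 0.0754) and 2.70 ± 0.44 (SE) in p38+/+ mice (adjusted p = 0.00785), and 2.34 for the AD main effect (adjusted p = 4.51e-04). With AD p38+/+ mouse 1, AD p38+/+ mouse 4 or WT p38KO mouse 2 left out, the p38KO comparison passed (adjusted p = 0.0382 to 0.0430).

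Clec7a encodes Dectin-1, a C-type lectin receptor that binds beta-glucans of fungi. Its levels were 102, 30.4, 38.3 and 35.8 CPM in AD p38KO mice, 105.9, 47.2, 50.1 and 31.3 CPM in AD p38+/+ mice, 5.45, 14.7, 2.66 and 23.5 CPM in WT p38KO mice, and 5.87, 5.60, 3.80 and 6.11 CPM in WT p38+/+ mice. All 8 AD mice were above all 8 WT mice, with the highest value of each AD group in mouse 1. Its AD effect on the log2 scale was 2.33 ± 0.52 (SE) in p38KO mice (adjusted p = 0.0700) and 3.21 ± 0.52 (SE) in p38+/+ mice (adjusted p = 0.00674). WT p38KO mouse 4, at 23.5 CPM, was the highest WT mouse, and without it the p38KO comparison passed (adjusted p = 0.0239).

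Cadm1, an adhesion molecule of the immunoglobulin superfamily, had 226, 227, 193 and 272 CPM in AD p38KO mice, 297, 277, 244 and 215 CPM in AD p38+/+ mice, 132, 122, 178 and 139 CPM in WT p38KO mice, and 143, 166, 219 and 147 CPM in WT p38+/+ mice. AD p38KO mice lay above WT p38KO mice, while AD p38+/+ mice overlapped WT p38+/+ mice through WT p38+/+ mouse 3. Its AD main effect was 0.65 ± 0.11 (SE) on the log2 scale (adjusted p = 0.00276), and it passed in neither genotype alone (adjusted p = 0.0700 in p38KO and 0.123 in p38+/+ mice). Without WT p38+/+ mouse 3 both comparisons passed, and without WT p38KO mouse 3 the p38KO comparison passed (adjusted p = 0.0408 to 0.0453 in p38KO mice over these fits and 0.0410 in p38+/+ mice).

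The other 3 receptors did not pass. Plaur, the receptor of urokinase plasminogen activator, averaged 27.3 ± 7.48 CPM in AD p38KO, 31.7 ± 12.5 CPM in AD p38+/+, 17.2 ± 7.67 CPM in WT p38KO and 14.6 ± 4.85 CPM in WT p38+/+ mice (mean ± SD of 4 mice per group), and its AD main effect had an adjusted p of 0.0795. It passed when any one of AD p38+/+ mouse 4, WT p38KO mouse 3 and WT p38+/+ mouse 2 was removed (adjusted p = 0.0280 to 0.0465). Cd44, the hyaluronan receptor, ranged from 0.993 to 8.09 CPM over all mice with every pair of groups overlapping. Olr1, the LOX-1 scavenger receptor, was scarce at 0, 0.159, 0 and 0 CPM in AD p38KO mice, 2.54, 1.45, 0.352 and 0 CPM in AD p38+/+ mice, 1.22, 1.66, 0.648 and 1.43 CPM in WT p38KO mice, and 0.652, 0.974, 2.58 and 0 CPM in WT p38+/+ mice, and it was the only member whose AD p38KO mice all lay below the WT p38KO mice. Of all 13912 genes tested, 324 lay wholly lower in that comparison. The adjusted p of Olr1 there was 0.323, and its AD p38KO values lie under the 3-read level.

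The promoters of Itgax and Clec7a, with that of the secreted Dkk2, are printed here as the 3 members called for the AD main effect whose RefSeq start lies within 3 bases of the deposited gene start and whose window holds a searched motif. Dkk2 entered the test only through AD libraries, and its call was lost when any of 11 libraries was left out. That call only chose the sequence and is not used as support. Searched on both strands in the 250 bases before each start were GAGGAA (the core bound by PU.1, the lineage factor of macrophages), TGANTCA (the site of AP-1) and CACGTG (the E-box bound by MiT family factors). None of these motifs contains another. Promoters were matched for 27 of the 34 members. GAGGAA was in 8 of these 27 (29.6%), in 25.9% of all promoters and in 25.9% of promoters of tested genes. TGANTCA was in 5 (18.5%), in 7.82% of all promoters and in 5.05% of promoters of tested genes. CACGTG was in 2 (7.41%), in 6.86% of all promoters and in 10.03% of promoters of tested genes. The CACGTG share of the members thus lay above that of all promoters and below that of tested genes. A match describes the letters of the window only. The 150 bases before the start are given 5′ to 3′ from RefSeq (GRCm38.p6), with motif matches in capitals.
Itgax, chr7:128129400-128129549, plus strand, TGANTCA match: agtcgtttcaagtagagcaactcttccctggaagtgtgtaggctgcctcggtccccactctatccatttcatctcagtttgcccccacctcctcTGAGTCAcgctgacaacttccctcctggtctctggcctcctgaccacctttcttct
Clec7a, chr6:129472780-129472929, minus strand, GAGGAA match: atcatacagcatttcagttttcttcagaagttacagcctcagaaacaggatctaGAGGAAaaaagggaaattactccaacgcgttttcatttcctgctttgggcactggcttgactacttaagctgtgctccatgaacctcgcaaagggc
Dkk2, chr3:132085142-132085291, plus strand, 2 GAGGAA matches: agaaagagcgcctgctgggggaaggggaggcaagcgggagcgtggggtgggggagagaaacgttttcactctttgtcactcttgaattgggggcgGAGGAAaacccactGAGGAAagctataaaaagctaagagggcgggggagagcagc
The AP-1 match of Itgax begins 56 bases before the start, the PU.1 core match of Clec7a 96 bases before it, and those of Dkk2 55 and 41 bases before it.

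**Figure D2:**
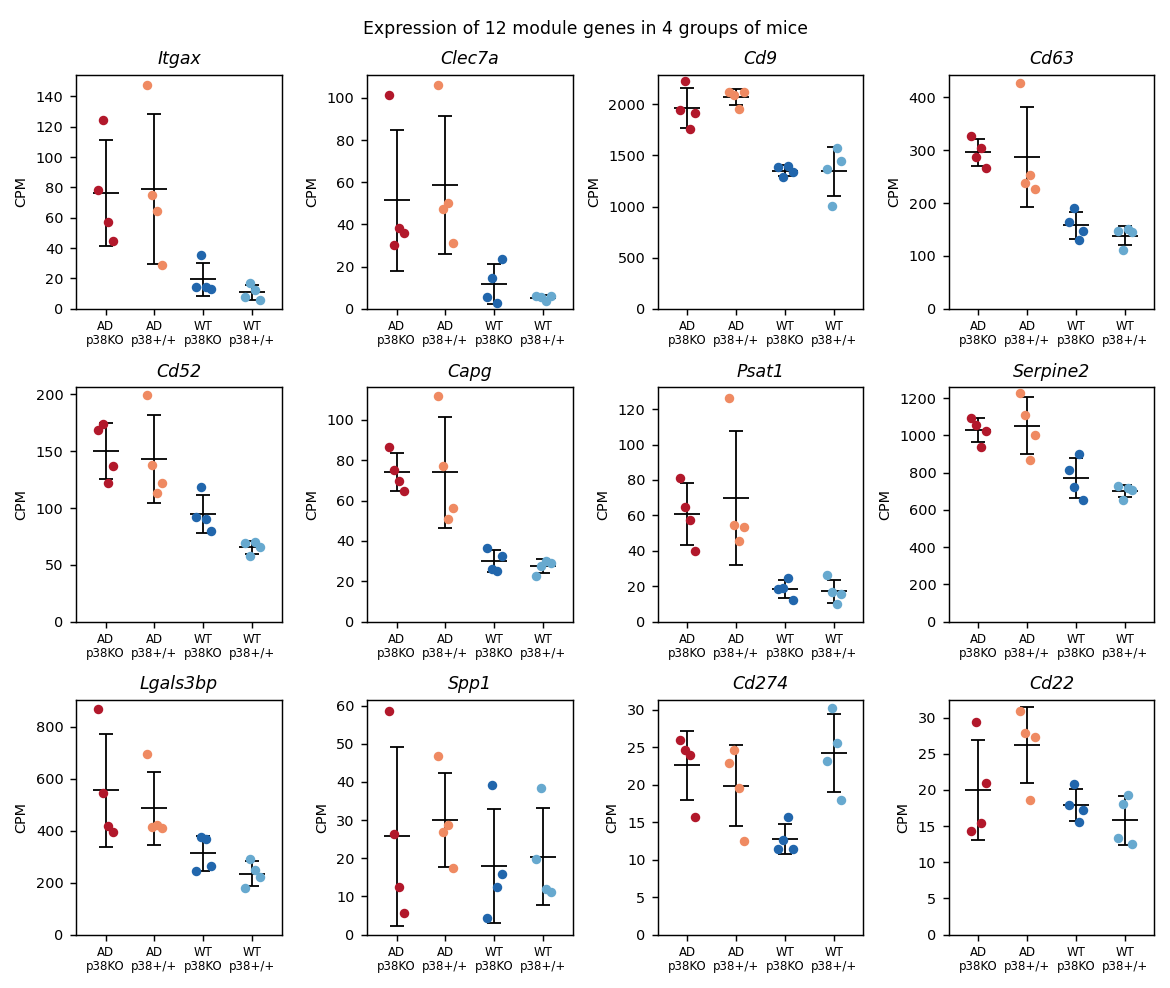
CPM of 12 members in each of 16 mice (points), with the mean and SD of each group of 4 in black, from AD p38KO at the left to WT p38+/+ at the right, and a y axis that starts at 0. Itgax, Clec7a, Cd63, Capg and Psat1 each had their highest AD p38+/+ value in mouse 1, at 147.4, 105.9, 428, 111.6 and 126 CPM, whereas Spp1, Cd274 and Cd22 were not called for AD.

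Among the tetraspanins and other membrane proteins, 4 of 6 tested members rose in the AD main effect. Cd9 is a tetraspanin that organizes adhesion molecules in the membrane, and it was the most abundant member per kilobase of exon. Its levels were 1948, 2229.6, 1763 and 1915 CPM in AD p38KO mice, 2118, 2091, 1956 and 2119 CPM in AD p38+/+ mice, 1388, 1287, 1394 and 1337 CPM in WT p38KO mice, and 1363, 1007, 1569 and 1442 CPM in WT p38+/+ mice. The 8 AD mice (1763 to 2230 CPM) lay above the 8 WT mice (1007 to 1569 CPM). For Cd9 the log2 fold change was 0.53 ± 0.11 (SE) in p38KO mice (adjusted p = 0.0428) and 0.64 ± 0.11 (SE) in p38+/+ mice (adjusted p = 0.00974). The p38KO call was lost when any of 11 libraries was left out (AD p38KO mice 1, 2 and 4, AD p38+/+ mice 2, 3 and 4, WT p38KO mice 1, 2, 3 and 4, and WT p38+/+ mouse 1), with adjusted p = 0.0522 to 0.132, at log2 fold changes of 0.47 to 0.55.

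Cd63, a tetraspanin of late endosomes and exosomes, had 327, 288, 304 and 267 CPM in AD p38KO mice, 428, 238, 254 and 227 CPM in AD p38+/+ mice, 165, 190.3, 130.3 and 147 CPM in WT p38KO mice, and 146, 111.1, 150.3 and 145 CPM in WT p38+/+ mice. The lowest AD value, 227 CPM, exceeded the highest WT value, 190.3 CPM. For Cd63 AD over WT gave a log2 fold change of 0.91 ± 0.17 (SE) in p38KO mice (adjusted p = 0.0277) and 1.01 ± 0.17 (SE) in p38+/+ mice (adjusted p = 0.00974). The p38KO call was lost without any one of AD p38KO mice 1 and 3, and WT p38KO mice 1, 3 and 4 (adjusted p = 0.0520 to 0.1005). A processed copy, Cd63-ps, was counted at 0.634 to 0.82 of the Cd63 level in every library, and how reads were divided between them is not stated. The 2 summed to 499 ± 40.4 CPM in AD p38KO mice, against 269.9 ± 46.2 CPM in WT p38KO mice, and to 481 ± 159 CPM in AD p38+/+ mice, against 239.5 ± 33.0 CPM in WT p38+/+ mice (mean ± SD of 4 mice per group).

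Cd52 encodes a short glycoprotein held in the membrane by a lipid anchor. Its levels were 169, 174, 122 and 137 CPM in AD p38KO mice, 199, 138, 113.3 and 122 CPM in AD p38+/+ mice, 91.9, 118.6, 90.1 and 79.4 CPM in WT p38KO mice, and 69.4, 57.4, 70.0 and 65.5 CPM in WT p38+/+ mice. AD and WT mice did not overlap within either p38 genotype, and WT p38KO mouse 2, at 119 CPM, lay above AD p38+/+ mouse 3, at 113 CPM. The AD effect on Cd52 was, in log2 units, 0.66 ± 0.17 (SE) in p38KO mice (adjusted p = 0.127) and 1.09 ± 0.17 (SE) in p38+/+ mice (adjusted p = 0.00511), and the call in p38+/+ mice held under all 32 alternatives tried.

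Cybb, the catalytic subunit of the phagocyte NADPH oxidase, had 54.3, 37.3, 60.7 and 52.0 CPM in AD p38KO mice, 113.9, 45.9, 52.8 and 39.4 CPM in AD p38+/+ mice, 16.2, 46.1, 12.2 and 26.4 CPM in WT p38KO mice, and 27.1, 28.1, 14.3 and 6.75 CPM in WT p38+/+ mice. AD p38+/+ mice lay above WT p38+/+ mice, and AD p38KO overlapped WT p38KO mice through WT p38KO mouse 2. Its AD main effect was 1.46 ± 0.31 (SE) on the log2 scale (adjusted p = 0.0236), which was lost without any one of AD p38KO mouse 1, AD p38+/+ mouse 1, WT p38KO mice 1 and 3, and WT p38+/+ mouse 3 (adjusted p = 0.0523 to 0.0625). Glipr1, of the CAP superfamily, and Kcnj2, the inward-rectifier potassium channel Kir2.1, did not pass (AD main effect adjusted p = 0.303 and 0.227). Exons of Glipr1 overlap those of Krr1 on the other strand, whose mean was 26.8 CPM, and use of strand in counting is not given in the sources used here.

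Gpnmb, a transmembrane glycoprotein of lipid-laden macrophages, was below the filter and untested. It had 10.4, 0, 1.24 and 0 CPM in AD p38KO mice and 1.00, 0.138, 0 and 0 CPM in AD p38+/+ mice, and was listed at 0 in all 8 WT mice. Signal was thus seen in 4 of 8 AD libraries, of which 3 reached 1 CPM and 1 (AD p38KO mouse 1) exceeded 10 CPM.

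Of the 6 checkpoint and costimulatory genes, Lilrb4a and Cd83 rose in the AD main effect. Lilrb4a, an inhibitory receptor of the immunoglobulin superfamily, had 18.6, 22.0, 9.66 and 16.5 CPM in AD p38KO mice, 34.2, 10.8, 17.9 and 10.9 CPM in AD p38+/+ mice, 4.46, 8.89, 7.33 and 1.60 CPM in WT p38KO mice, and 5.42, 9.47, 3.28 and 1.05 CPM in WT p38+/+ mice. All 8 AD mice lay above all 8 WT mice, with a lowest AD value of 9.66 CPM against a highest WT value of 9.47 CPM. The AD main effect was 1.81 ± 0.38 (SE) (adjusted p = 0.0235), and it was lost without any one of AD p38KO mice 1 and 2, AD p38+/+ mice 1 and 3, WT p38KO mice 1 and 4, and WT p38+/+ mouse 3 (adjusted p = 0.0523 to 0.0637). Gm49339 overlaps the exons of Lilrb4a on the same strand and had 7.24 to 12.9 CPM in AD p38KO mice, against 0.0143 to 4.61 CPM in WT p38KO mice, and 12.9 to 29.2 CPM in AD p38+/+ mice, against 0.591 to 5.23 CPM in WT p38+/+ mice, so the share of reads that belongs to Lilrb4a is uncertain. The close paralog Lilr4b averaged 2.20 ± 1.99 CPM in AD p38KO mice, against 2.96 ± 3.16 CPM in WT p38KO mice (mean ± SD of 4 mice per group), and was not called.

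Cd83, a membrane protein known from mature dendritic cells, had 235, 274, 332 and 239 CPM in AD p38KO mice, 378, 310.4, 308 and 269.5 CPM in AD p38+/+ mice, 234, 228, 203 and 215 CPM in WT p38KO mice, and 238, 203, 225 and 224 CPM in WT p38+/+ mice. AD and WT mice did not overlap within either genotype, though AD p38KO mouse 1, at 235.5 CPM, lay under WT p38+/+ mouse 1, at 238 CPM. The AD main effect was 0.39 ± 0.08 (SE) (adjusted p = 0.0240), lost without any one of AD p38KO mouse 2, AD p38+/+ mice 1 and 2, and WT p38KO mice 3 and 4 (adjusted p = 0.05002 to 0.0630 by limma-trend).

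Cd274, the PD-1 ligand PD-L1, had 25.9, 24.7, 23.99 and 15.7 CPM in AD p38KO mice, 22.9, 24.7, 19.5 and 12.5 CPM in AD p38+/+ mice, 11.4, 12.6, 15.7 and 11.4 CPM in WT p38KO mice, and 23.1, 30.3, 25.6 and 17.9 CPM in WT p38+/+ mice. AD p38KO mice lay above WT p38KO mice and WT p38KO mice lay below WT p38+/+ mice, both without overlap, while AD p38+/+ and WT p38+/+ mice overlapped. Neither difference passed (log2 fold change 0.78 ± 0.23 (SE), adjusted p = 0.228 for AD p38KO against WT p38KO, and -0.89 ± 0.23 (SE), adjusted p = 1.00 for WT p38KO against WT p38+/+). Cd22, a sialic acid-binding inhibitory lectin, averaged 20.02 ± 6.89 CPM in AD p38KO, 26.2 ± 5.27 CPM in AD p38+/+, 17.9 ± 2.20 CPM in WT p38KO and 15.8 ± 3.39 CPM in WT p38+/+ mice (mean ± SD of 4 mice per group), with an AD main effect that did not pass (adjusted p = 0.315). Cd84, a self-binding receptor of the SLAM family, and Cd86, the ligand of CD28 and CTLA-4, ranged over all mice from 292 to 427 CPM and from 258 to 370.5 CPM. Their AD main effects had 95% intervals of 0.00 to 0.30 and -0.23 to 0.06 on the log2 scale.

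Of the 9 secreted proteins, 5 were called higher in the AD main effect. These include Hpse and Dkk2, which were tested only because AD libraries reached the filter, and 3 of the other 7 rose (Serpine2, Lgals3 and Lgals3bp). Serpine2 was the only secreted member to pass in a single genotype. Serpine2, or protease nexin-1, inhibits thrombin and other serine proteases. Its levels were 1093, 1058, 939 and 1025 CPM in AD p38KO mice, 1229, 1109, 868 and 1002 CPM in AD p38+/+ mice, 815, 722, 899 and 654 CPM in WT p38KO mice, and 727, 652, 719.8 and 706 CPM in WT p38+/+ mice. AD and WT mice did not overlap within either genotype, while WT p38KO mouse 3, at 899 CPM, lay above AD p38+/+ mouse 3, at 868 CPM. On the log2 scale AD exceeded WT by 0.42 ± 0.11 (SE) in p38KO mice (adjusted p = 0.133) and 0.57 ± 0.11 (SE) in p38+/+ mice (adjusted p = 0.0256). The p38+/+ call was lost without any one of AD p38+/+ mice 1 and 2, and WT p38+/+ mice 1, 2, 3 and 4 (adjusted p = 0.0544 to 0.133).

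Lgals3 encodes galectin-3, which binds beta-galactosides of glycoproteins and coats damaged lysosomes. Its levels were 18.4, 5.89, 6.76 and 6.16 CPM in AD p38KO mice, 10.6, 10.2, 11.4 and 6.17 CPM in AD p38+/+ mice, 4.47, 3.90, 2.59 and 4.01 CPM in WT p38KO mice, and 2.46, 3.41, 2.13 and 4.18 CPM in WT p38+/+ mice. All 8 AD mice lay above all 8 WT mice, and AD p38KO mouse 1, at 18.4 CPM, stood apart from the other mice of its group at 5.89 to 6.76 CPM. The AD main effect was 1.29 ± 0.24 (SE) (adjusted p = 0.00984). Neither genotype passed alone (adjusted p = 0.295 in p38KO and 0.0745 in p38+/+ mice), and the p38+/+ comparison passed when AD p38KO mouse 1 was left out of the shared fit (adjusted p = 0.0173).

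Lgals3bp, the galectin-3-binding protein, had 868, 544, 416 and 395 CPM in AD p38KO mice, 696, 414, 423 and 411 CPM in AD p38+/+ mice, 243, 374, 368 and 266 CPM in WT p38KO mice, and 178, 293, 247 and 220.0 CPM in WT p38+/+ mice. All 8 AD mice lay above all 8 WT mice, with mouse 1 the highest of both AD groups. The AD main effect was 0.91 ± 0.17 (SE) (adjusted p = 0.00758), and neither genotype passed alone (adjusted p = 0.233 in p38KO and 0.0745 in p38+/+ mice). The p38+/+ comparison passed when AD p38KO mouse 1 was left out of the shared fit (adjusted p = 0.0249).

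Hpse and Dkk2 were scarce. Hpse, the heparanase that trims heparan sulfate chains, had 4.96, 7.24, 3.11 and 3.38 CPM in AD p38KO mice, 18.7, 3.38, 4.29 and 2.13 CPM in AD p38+/+ mice, 1.87, 2.17, 0 and 0.287 CPM in WT p38KO mice, and 1.23, 0.730, 0 and 0.836 CPM in WT p38+/+ mice. The lowest AD value was 2.13 CPM, in AD p38+/+ mouse 4, and the highest WT value was 2.17 CPM, in WT p38KO mouse 2. All 8 AD libraries and 3 WT libraries reached 1 CPM. Dkk2, a modulator of Wnt signalling, had 1.05, 0.716, 0.466 and 6.29 CPM in AD p38KO mice and 8.36, 1.45, 3.66 and 0.213 CPM in AD p38+/+ mice. It was listed at 0 in 7 of 8 WT mice and had 0.434 CPM in WT p38KO mouse 2, so no fold change is given. Of the AD libraries, 5 reached 1 CPM, and no WT library did. Since both genes entered the test through AD libraries, their calls for the AD main effect are given without a test, and that of Dkk2 was lost when any of 11 libraries was left out.

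Sulf2, an extracellular sulfatase that edits heparan sulfate, averaged 35.8 ± 15.9 CPM in AD p38KO, 36.5 ± 23.8 CPM in AD p38+/+, 17.1 ± 3.91 CPM in WT p38KO and 13.1 ± 3.84 CPM in WT p38+/+ mice (mean ± SD of 4 mice per group). Its AD main effect did not pass in the fit described above (adjusted p = 0.178), and it passed when AD p38+/+ mouse 4, at 8.79 CPM, was left out (adjusted p = 0.00968). It also passed with the animal number as a replicate block, as given in the last section. Exons of Sulf2 overlap Ncoa3 on the other strand, whose mean was 162 CPM.

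Spp1, Lyz2 and Timp2 did not pass. Spp1 encodes osteopontin, an integrin-binding phosphoprotein. Its levels were 58.6, 26.3, 12.4 and 5.68 CPM in AD p38KO mice, 46.8, 26.8, 28.7 and 17.4 CPM in AD p38+/+ mice, 4.39, 39.2, 12.4 and 15.98 CPM in WT p38KO mice, and 19.8, 38.5, 11.8 and 11.2 CPM in WT p38+/+ mice, and every pair of groups overlapped within a range of 4.39 to 58.6 CPM. Its AD main effect had a 95% interval of -0.42 to 1.46 on the log2 scale. Lyz2, the lysozyme of macrophages, ranged from 85.3 to 252 CPM with an interval of -0.32 to 0.50. Timp2, an inhibitor of matrix metalloproteinases, was the most abundant secreted member per length and varied little (918 to 1199 CPM), with an interval of 0.02 to 0.23.

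Among the 5 tested intracellular members, Capg and Psat1 rose in every AD comparison. Capg caps actin filaments in motile phagocytes. Its levels were 86.4, 75.4, 69.7 and 65.0 CPM in AD p38KO mice, 111.6, 77.0, 51.0 and 56.2 CPM in AD p38+/+ mice, 36.5, 25.9, 25.2 and 32.5 CPM in WT p38KO mice, and 22.4, 27.6, 30.2 and 29.2 CPM in WT p38+/+ mice. The lowest AD value was 51.0 CPM, against a highest WT value of 36.5 CPM. Capg was higher in AD by a log2 fold change of 1.30 ± 0.21 (SE) in p38KO mice (adjusted p = 0.00699) and 1.36 ± 0.21 (SE) in p38+/+ mice (adjusted p = 0.00501), and 1.33 for the AD main effect (adjusted p = 4.61e-05), the lowest adjusted p among the 32 members there. Its call in p38KO mice held with any single library left out and was lost without AD p38KO mice 1 and 4 together (adjusted p = 0.0687), an alternative chosen after the data were seen.

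Psat1, the aminotransferase of the serine synthesis pathway, had 81.2, 65.0, 57.2 and 39.7 CPM in AD p38KO mice, 126, 54.5, 45.4 and 53.3 CPM in AD p38+/+ mice, 18.3, 18.9, 24.8 and 12.04 CPM in WT p38KO mice, and 26.1, 16.5, 10.1 and 15.6 CPM in WT p38+/+ mice. The lowest AD value was 39.7 CPM, in AD p38KO mouse 4, and the highest WT value 26.1 CPM, in WT p38+/+ mouse 1. AD over WT gave Psat1 a log2 fold change of 1.69 ± 0.32 (SE) in p38KO mice (adjusted p = 0.0303) and 1.95 ± 0.32 (SE) in p38+/+ mice (adjusted p = 0.00805). The p38KO call was lost without any one of AD p38KO mice 1, 2 and 3, and WT p38KO mice 1, 2 and 4 (adjusted p = 0.0520 to 0.115), and the p38+/+ call held under all 32 alternatives tried.

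Etl4, Gas7 and Rai14 were low and variable. Etl4 (sickle tail protein) had 4.29, 9.31, 11.9 and 0 CPM in AD p38KO mice, 17.1, 5.03, 3.10 and 5.75 CPM in AD p38+/+ mice, 0.732, 0, 0 and 1.72 CPM in WT p38KO mice, and 1.67, 0.852, 0 and 0 CPM in WT p38+/+ mice, and AD p38KO mouse 4, listed at 0, stood apart from the other AD mice. It reached 1 CPM in 7 AD and 2 WT libraries, so it too entered the test through AD libraries. It was not called in any comparison with all mice. Some fits with a single mouse left out called Etl4, and no support is drawn from them because AD libraries brought it into the test. Gas7, an F-BAR protein that shapes membranes, had 5.56, 3.82, 7.14 and 0.203 CPM in AD p38KO mice and 10.2, 1.38, 4.15 and 1.63 CPM in AD p38+/+ mice, against 1.14, 2.02, 1.37 and 1.00 CPM in WT p38KO mice and 1.59, 0.791, 0.531 and 0.321 CPM in WT p38+/+ mice. It passed without AD p38KO mouse 4 (adjusted p = 0.0228, against 0.269 with all mice). Rai14, an ankyrin-repeat protein linked to actin, had an adjusted p of 0.559. AD p38KO mouse 4 had the fewest detected genes of all libraries (15453). With group means removed, correlations with the number of detected genes were 0.61 for Etl4, 0.60 for Gas7 and 0.69 for Rai14. Among the tested members these correlations ran from -0.46 (Cd84) to 0.69 (Rai14). The part of detected genes in the calls made without AD p38KO mouse 4 was not tested. Sash1, a scaffold protein, was untested, with a highest value of 1.33 CPM in AD p38+/+ mouse 1.

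No member passed the test between p38KO and p38+/+ mice. In AD p38KO against AD p38+/+ mice, 0 of 32 passed by limma-trend (lowest adjusted p 0.708, shared by Olr1 and Cd86), those 2 had an unadjusted p under 0.05 (both lower), and 0.0503% of all genes passed. In WT p38KO against WT p38+/+ mice, 0 of 32 passed by limma-trend, 2 had an unadjusted p under 0.05 (Cd52 higher and Cd274 lower), and 0.00719% of all genes passed. Averaged over AD and WT, 0 of 32 passed by limma-trend, with 2 at an unadjusted p under 0.05 (1 in each direction) and 0.0791% of all genes called. Summed immediate early and dissociation stress genes (12 of 12 matched) were at 719.9 to 822 CPM in AD p38KO mice, against 880.1 to 1134 CPM in AD p38+/+ mice, and their part in this comparison was not tested. No member's AD p38KO mice lay wholly above or below its AD p38+/+ mice, while 3.34% of all genes did so. In WT mice Cd52 (higher) and Cd274 (lower) had p38KO mice wholly apart from p38+/+ mice, as did 2.72% of all genes.

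A miss at this threshold does not show that the levels are alike. The 95% interval of the p38KO effect in AD mice lay within 1 log2 unit on either side of 0 for 19 of 32 members, and in WT mice for 17. Among the called members, the interval in AD mice was -0.31 to 0.15 for Cd9, -0.27 to 0.46 for Cd63, -0.37 to 0.50 for Capg, and -0.25 to 0.21 for Serpine2. It was wider for Itgax (-0.87 to 1.00) and Clec7a (-1.31 to 0.87).

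The AD effect was compared between p38 genotypes by the interaction, taken as the AD effect in p38KO minus that in p38+/+ mice. Of 32 members, 0 passed by limma-trend, 1 had an unadjusted p under 0.05 (Cd274, log2 difference 1.08 ± 0.33 (SE), adjusted p = 1.000), and 0% of all genes passed. Although none passed, 29 of 32 point estimates were below 0, with a median of -0.29, against -0.06 for all genes, of which 57.4% were below 0. AD p38+/+ mouse 1 bore on this count: without it 20 of 32 were below 0 (median -0.11, against 55.3% of all genes below 0). The interaction is made of 2 p38KO effects. In AD p38KO against AD p38+/+ mice, 23 of 32 estimates were below 0 (median -0.16, against 53.8% of all genes below 0), and without that mouse 14 of 32 (median 0.06, against 51.8% of all genes). In WT p38KO against WT p38+/+ mice, 25 of 32 estimates were above 0 (median 0.19), against 53.0% of all genes above 0. In male mice only, 20 of 32 interaction estimates were below 0 (median -0.12), as were 15 of 32 in AD p38KO against AD p38+/+ mice (median 0.04), and 23 of 32 estimates were above 0 in WT p38KO against WT p38+/+ mice (median 0.06). Most markers of border-associated macrophages had estimates on the same side of 0 as most members. Their interaction estimates were below 0 for 9 of 10 genes (median -0.93), with 0 called by limma-trend and 2 at an unadjusted p under 0.05. The p38KO effect on these markers was below 0 for 7 of 10 in AD mice (median -0.32) and above 0 for 10 of 10 in WT mice (median 0.59), and their part in the members' estimates was not tested.

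**Figure D3:**
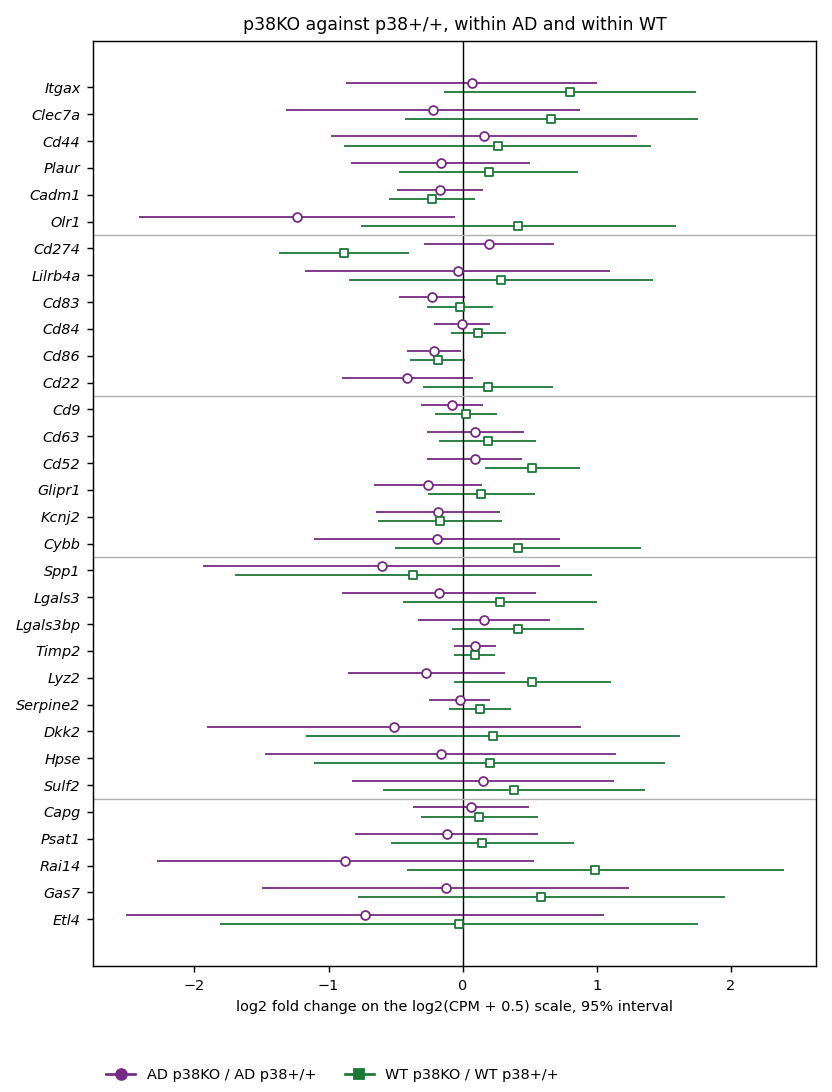
Log2 fold change of p38KO over p38+/+ for the 32 tested members (x axis, log2(CPM + 0.5) scale, with 95% intervals), as circles within AD mice and squares within WT mice. All symbols are open because 0 members passed an adjusted p of 0.05, and the median was -0.16 in AD and 0.19 in WT mice.

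Individual mice differed in the members as a group. AD p38+/+ mouse 1, a female, was the highest of its 4 for 24 of 32 members and for 14 of the 16 called in the AD main effect, and AD p38+/+ mouse 4 was the lowest of the 4 for 19 of 32. WT p38KO mouse 2, a female, was the highest of its 4 for 16 members, and AD p38KO mouse 1, a female, for 12. The sex term of a fit with sex added to the 4 groups was examined after the data were seen, and 26 of 32 members had higher estimates in female than in male mice (median log2 difference 0.35, against 0.01 for all genes). None passed by limma-trend (lowest adjusted p 0.450), and 7 had an unadjusted p under 0.05, all higher in females, among 1067 of 13912 genes at that level. Of these 7, Hpse had the largest estimate, a log2 difference of 1.42 between female and male mice. With a single female in 3 of the 4 groups, sex and the individual mouse cannot be told apart there. After group means were removed, pairs of the 16 called members had a median correlation of 0.33 over 16 libraries (lowest -0.50, highest 0.78, 98 of 120 pairs above 0), where the points share library depth and composition. All 496 pairs of the 32 tested members had a median of 0.27.

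**Figure D4:**
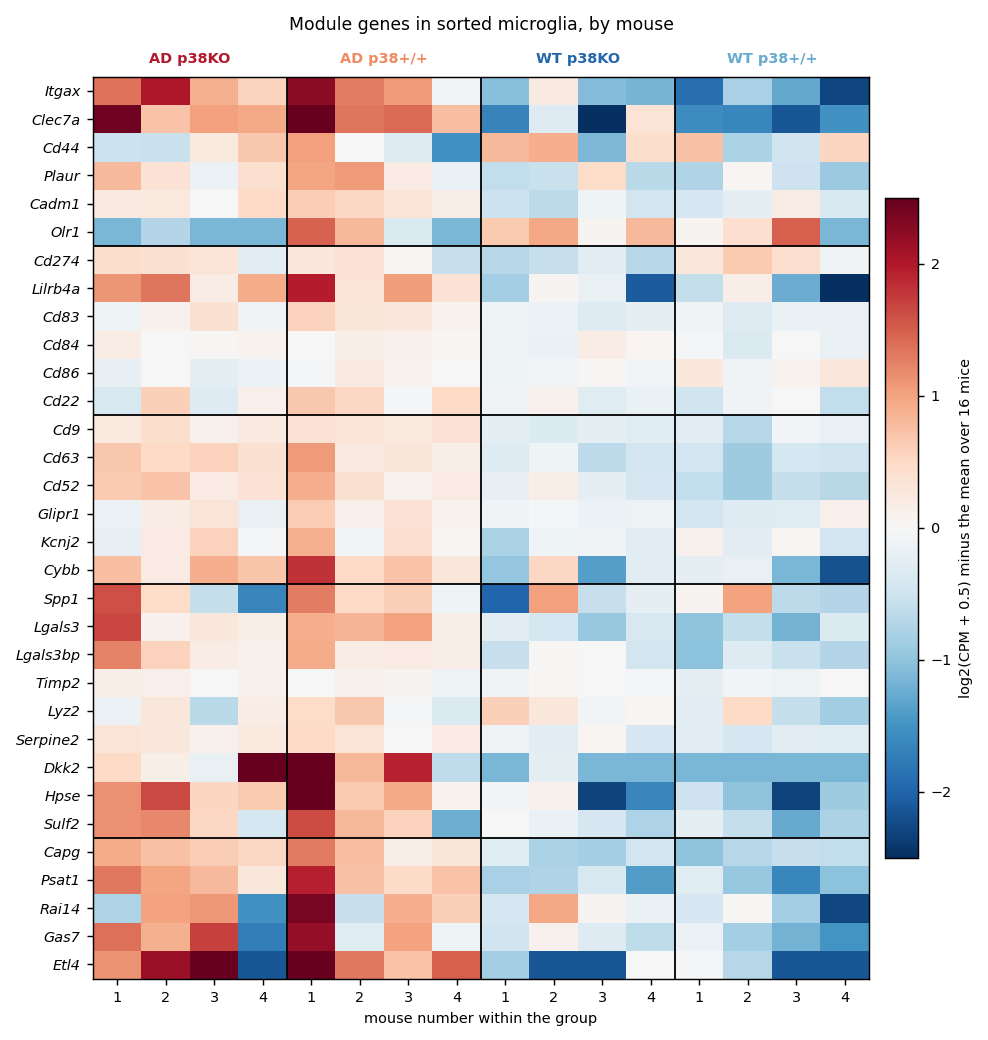
Heat map of the 32 tested members (rows, in 5 role groups divided by black lines) in 16 mice (columns, mouse 1 to 4 of each group), coloured by log2(CPM + 0.5) minus the member's mean over all mice. The AD mice at the left are mostly red, the WT mice at the right mostly blue, and AD p38+/+ mouse 1 is the highest of its group for 24 members.

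Per kilobase of exon, the members spanned several orders of magnitude. Cd9 averaged 961 CPM per kb in AD p38KO, 1013 in AD p38+/+, 661 in WT p38KO and 658 in WT p38+/+ mice. Timp2 came next, at 279 CPM per kb in AD p38+/+ and 256 in WT p38+/+ mice. Lgals3bp, Lyz2, Serpine2, Cd83 and Cd52 followed in AD p38+/+ mice, from 171 CPM per kb for Lgals3bp to 121 for Cd52. The most strongly raised receptors were much lower, at 22.2 CPM per kb for Clec7a and 16.4 for Itgax in AD p38+/+ mice, against 2.03 and 2.24 in WT p38+/+ mice.

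In the transcript table, 79 of the 132 transcripts listed for these genes were tested, over all 32 genes. In AD p38+/+ against WT p38+/+ mice, 9 transcripts of 8 genes rose (Itgax-201, Clec7a-201, Clec7a-202, Cd9-201, Cd63-201, Cd52-201, Capg-201, Serpine2-201 and Psat1-201), while 0.122% of all 34323 transcripts tested rose. In AD p38KO against WT p38KO mice, 0 of 79 passed by limma-trend (lowest adjusted p 0.0503, for Cd63-201), with 34 at an unadjusted p under 0.05, while 0.0641% of all transcripts rose. For the AD main effect 16 transcripts of 11 genes rose, Capg-202, Capg-208 and Psat1-205 among them, while 0.341% of all transcripts rose. Clec7a was divided among Clec7a-204, with 43.2% of its CPM, Clec7a-201 with 36.7% and Clec7a-202 with 19.9%. The table gives Clec7a-204 the biotype polymorphic pseudogene, and its AD log2 fold change in p38+/+ mice was 2.77 (adjusted p = 0.0802). Cd83 CPM was mostly assigned to Cd83-202, annotated as a retained intron (62.6%), and Lilrb4a was spread over retained-intron and coding models, with 27.6% on Lilrb4a-214 and 20.5% on the coding Lilrb4a-201.

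Other genes of the same state rose in AD as well, in a list that was also chosen with earlier results of these data known and gives no independent support. Of 40 further DAM genes (Trem2, Tyrobp, Apoe, cathepsins, chemokines and others), 38 were tested, and 14 rose in AD p38KO against WT p38KO mice, 17 in AD p38+/+ against WT p38+/+ mice and 27 in the AD main effect, with none lower. Their medians were 0.52, 0.67 and 0.61 on the log2 scale. Baiap2l2, Fabp5 and Mamdc2 passed the filter only through AD libraries, and of the other 35 genes 12, 14 and 24 rose in these comparisons. Among these 35, the smallest p-values for the AD main effect were those of Cst7, an inhibitor of cathepsins, and Ank, a pyrophosphate transporter. Cst7 averaged 219.7 ± 59.5 CPM in AD p38KO mice, against 10.9 ± 2.06 CPM in WT p38KO mice, and 212 ± 126 CPM in AD p38+/+ mice, against 11.2 ± 2.38 CPM in WT p38+/+ mice (mean ± SD of 4 mice per group). With p38α lost, 0 of the 38 passed in AD mice by limma-trend, with 0 at an unadjusted p under 0.05. Of 34 genes of resting microglia, 0 passed by limma-trend in either AD comparison, with 5 at an unadjusted p under 0.05 in p38KO and 4 in p38+/+ mice, all lower, at medians of -0.10 and -0.13. In the AD main effect 30 of the 34 had lower estimates (median -0.11), and 1 was called, Mef2a, a transcription factor, which was lower. At an unadjusted p under 0.05 there were 13 lower and 1 higher. Of all 13912 genes tested, 801 were lower and 870 higher at that level in the AD main effect. These counts were 807 and 523 in p38KO mice, and 337 and 652 in p38+/+ mice.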

How the data were processed

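RNA-seq libraries of sorted microglia from 16 mice were used, 4 per group. Per the labels and the study's methods, the authors aligned reads with STAR to mm10, counted them against Ensembl release 100 in Partek Flow 10.0.22.0828 and deposited gene and transcript values as CPM with 0.0001 added, and they tested with DESeq2. Strand use in counting is not given in the sources used here. Only 73.4 to 79.7% of low values were whole multiples of 1 read, so counts were not recovered and CPM were tested with limma 3.58.1 (limma-trend, R 4.3.3) on log2(CPM + 0.5). This scale understates changes of low genes. All 16 libraries entered 1 fit, over the 13912 genes or 34323 transcripts that reached 1 CPM in 4 or more libraries, with Benjamini-Hochberg adjustment over all of them and a threshold of 0.05. The main effects average both p38 genotypes or both AD genotypes. The code was tested on simulated data. Floors of 3 reads cover counting error only. Values, motifs and figures were computed in Python 3.11.15 (pandas 2.3.3, matplotlib 3.10.9). A value at the deposited 0.0001 is called listed at 0.

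Members and gene lists were chosen with earlier results of these data known. Values per mouse are given for members called in a pairwise or main effect. Cd274, Olr1, Spp1, Etl4, Gas7 and Gpnmb were given per mouse after their values were seen, and other members get means, ranges or intervals. Of the further DAM genes, those with the smallest p of the AD main effect are named. Lengths are unions of GENCODE M21 exons. Of 34 members, 32 had the same coordinates there as in the deposited table. Alternatives changed the pseudocount, filter, scaling, weights, covariates, samples and table. Groups came from the sample labels.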

Additional observations from a re-analysis of the deposited data

Results flagged for a closer look

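Within each group of 4 mice, the highest and the lowest value of each of the 34 members were checked for a distance from the rest by Dixon's ratio of its gap to the group's range (95% critical value for 4 values). In the 128 groups with a value of at least 1 CPM, 13 values stood apart. The ratio was taken on CPM and the groups share mice, so no rate of chance is set beside this count.

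AD p38+/+ mouse 1 held 6 of them, all the highest of the group. These were Cd63 at 428 CPM, against 227 to 254 CPM in the other mice, Lgals3bp at 696 CPM, against 411 to 423 CPM, Psat1 at 126 CPM, against 45.4 to 54.5 CPM, Hpse at 18.7 CPM, against 2.13 to 4.29 CPM, Gpnmb at 1.00 CPM, against at most 0.138 CPM, and Sash1 at 1.33 CPM, against at most 0.142 CPM. AD p38KO mouse 1 held 3, with Clec7a at 101.5 CPM, against 30.4 to 38.3 CPM, Lgals3 at 18.4 CPM, against 5.89 to 6.76 CPM, and Gpnmb at 10.4 CPM, against at most 1.24 CPM.

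The remaining values came from 4 mice. Dkk2 stood at 6.29 CPM in AD p38KO mouse 4, against 0.466 to 1.05 CPM in the other mice of its group. Itgax stood at 35.5 CPM in WT p38KO mouse 2, against 13.3 to 14.5 CPM, and Plaur at 28.6 CPM in WT p38KO mouse 3, against 12.8 to 13.9 CPM. Cd63 was the lowest of its group in WT p38+/+ mouse 2, at 111.1 CPM, against 145 to 150.3 CPM.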

How the results depend on the processing

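Of 7037 member values recomputed under the alternatives, 6892 stayed on their side of the threshold, 100 lost a call and 45 gained one. The sign changed in 262 values, none of them called with or without the change of setting, and no called value reversed. In AD p38KO against WT p38KO mice, 4 members rose, but 1 did without a pseudocount beyond the deposited 0.0001 CPM, 8 with sex as a covariate, 2 in male mice only, 1 to 5 with each library left out in turn and 0 without AD p38KO mice 1 and 4, an alternative chosen after the data were seen. In AD p38+/+ against WT p38+/+ mice, 8 rose, but 5 with only the groups compared in the fit, 3 in male mice only and 7 to 10 with each library left out. For the AD main effect 16 rose, but 9 in male mice only and 12 to 18 with each library left out. The p38KO comparisons and the interaction gave 0 by limma-trend under all their alternatives. Among transcripts, 0 rose in AD p38KO against WT p38KO mice, but 3 with a filter of 5 CPM, 1 with median ratio scaling, 2 with only the groups compared, 5 with sex, 1 without AD p38KO mice 1 and 4, and 0 to 3 with each library left out. In AD p38+/+ against WT p38+/+ mice, 9 transcripts rose, but 3 with only the groups compared, 1 in male mice only and 3 to 10 with each library left out. Male-only fits have fewer samples. The cause of the other shifts was not tested.

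Mouse numbers were not taken to pair the groups (correlations of same-numbered deviations from -0.07 to 0.18, and not all above 0.1). Each mouse correlated best with its own number in AD p38KO against AD p38+/+ mice (0.03 to 0.07). In WT p38KO against WT p38+/+ mice, mice 1, 3 and 4 did so (0.18, 0.08 and 0.13) and mouse 2 did not (-0.04). Both are hints from the data only. With the animal number as a replicate block, 4 members rose in AD p38KO against WT p38KO mice, 8 in AD p38+/+ against WT p38+/+ mice and 16 in the AD main effect (14 with sex), and 1 transcript rose in AD p38KO against WT p38KO mice. Sex in the block fit left the other 3 counts as they were. The counts hide exchanges of genes. In AD p38KO against WT p38KO mice the block added Itgax (adjusted p = 0.00990, or 0.0299 with sex, by limma-trend) and left out Cd9 (0.0791, or 0.171 with sex). In the AD main effect it added Sulf2 (0.0348) and left out Dkk2 (0.0802), and with sex it left out Dkk2 (0.0811) and Cd83 (0.0562).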
